A study of Mus musculus with 16 samples.

Results

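Genes that injured kidney tubules switch on were followed here through obstruction of the ureter in mouse kidney. The set comprised 9 known markers of tubular injury and dedifferentiation, chosen by symbol (HAVCR1, LCN2, CLU, SPP1, SOX9, VCAM1, CD44, ANXA2 and PROM1), and 8 of them were found among the 18132 genes of the deposited table. CLU was matched neither by its symbol nor by a RefSeq synonym and was not analysed here. Each of the other 8 was described in all 16 kidneys.

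A tubule cell that is stressed or injured loses part of its mature transport program and takes on features of an immature, motile cell, which allows surviving cells to spread over the damaged stretch. On the way it places scavenging and adhesion molecules on its surface, releases small secreted proteins into urine and interstitium, and re-expresses transcription factors of the developing nephron. HAVCR1 (kidney injury molecule) and LCN2 (neutrophil gelatinase-associated lipocalin) are the members most used as injury markers in urine.

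Kidneys came from wildtype (WT) C57/BL6 mice and from IL-33-deficient mice (IL-33 KO in the labels), which lack the nuclear cytokine IL-33 in every cell and had been backcrossed to a Taconic C57BL/6J BomTac background. In unilateral ureteral obstruction (UUO), a metal clip closed the ureter on the left side, and the kidney was harvested 24 h later. The study's methods give an age of 8 weeks unless stated otherwise. Obstructed kidneys numbered 7 from WT and 5 from deficient mice. Untreated kidneys, the controls, numbered 2 for either genotype. By their labels the obstructed kidneys fall into set 1 (WT 3, deficient 2) and set 2 (WT 4, deficient 3), while no set is named for controls. Each kidney was read on 1 Illumina array, and replicates are named by the number in their label. The labels do not say that every array came from another mouse, so p-values measure the spread between these arrays.

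Values are log2 intensities after quantile normalization, and differences of means are log2 fold changes with their standard error (SE) from limma and p-values adjusted over all genes by the Benjamini-Hochberg method. The median gene of an array lay at 7.05 and the brightest at 14.49. A gene without transcript still gives background light, so intensities near that median say little about expression and compress the fold change of dim genes. The number of arrays, above all the 2 controls of each genotype, limits the precision.

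IL33 itself was read first to check the genotype labels. It lay at 7.62 and 8.02 in WT controls and between 8.39 and 9.57 (median 9.44) in the 7 WT kidneys after UUO. The IL-33-deficient kidneys gave 6.88 and 6.85 in controls and 6.88, 6.80, 7.02, 6.88 and 6.88 after UUO, below every WT kidney. Where the IL33 probe lies relative to the deleted part was not given in the sources used here.

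The kidney label was checked with tubule markers. Of 27 proximal tubule markers measured, 1 (SLC7A13) stayed at or below the median gene in all 16 kidneys, and their summed intensity in the 4 controls was 160200, 160100, 158000 and 162700. After UUO the sum ran from 75400 to 148000 (median 107300) in WT and was 60840, 66160, 73360, 76590 and 90980 in IL-33-deficient kidneys.

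WT replicates 3818 and 3820 were doubted from the start, because earlier results of these data had named them as weak responders. Here their proximal tubule sums of 116300 and 148000 were the closest to the controls among the 12, and so were their sums over 12 markers of thick limb and distal tubule, 20330 and 27730 against 30950 to 38940 in controls and 11330 to 17900 in the other UUO kidneys. The responses of members in WT, their genotype differences over both sets and the WT counts of the lists are therefore also given without these 2 arrays. Because the 2 were picked as weak responders in these same data, changes seen without them partly follow from that choice. Genotype differences within a set and those of genes of the lists are given with all arrays only.

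In WT kidneys, 5 of the 8 members (HAVCR1, LCN2, SPP1, ANXA2 and SOX9) were higher after UUO at an adjusted p under 0.05 and 0 were lower. Over all genes 15.2% were called, 6.97% higher and 8.22% lower. Without IL-33 the same 5 members and VCAM1 were higher and 0 were lower, against 21.8% of all genes called, 10.6% higher and 11.2% lower. The median log2 fold change of the 8 members was 1.15 in WT and 1.23 in IL-33-deficient kidneys, beside 0.00 over all genes in both. With the UUO arrays of set 1 alone, 3 of the 8 members were called in WT, as without control 3812, and 4 without control 3811. Leaving out 3818 and 3820 gave 6, CD44 being added.

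**Figure D1:**
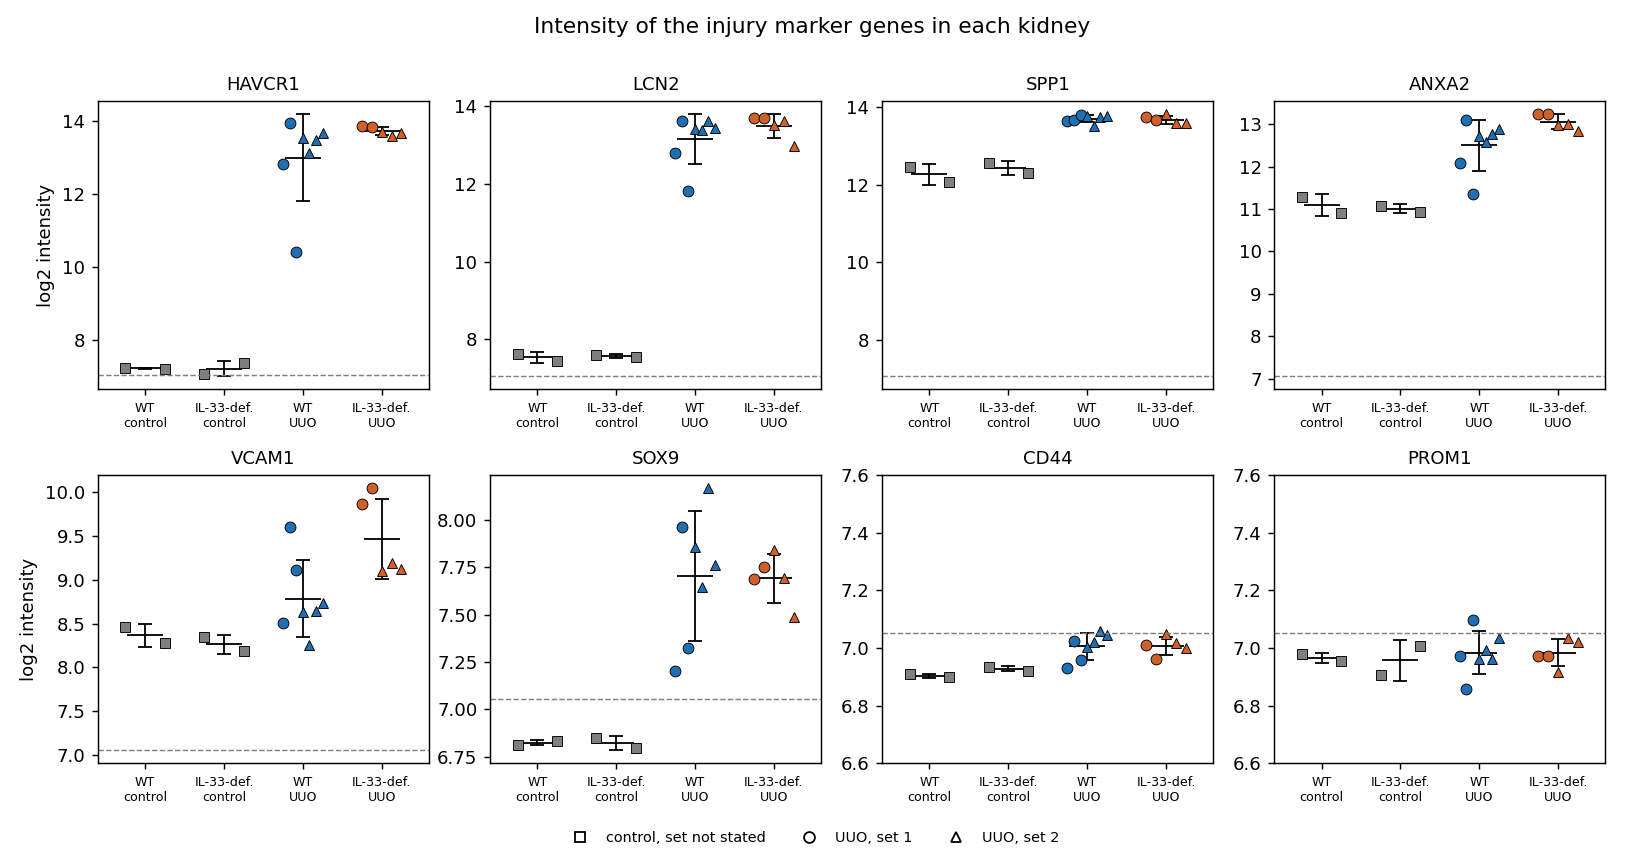
Log2 intensity (vertical axis, scaled for each gene) of the 8 members in each of 16 kidneys, by genotype and treatment. Squares are controls, circles UUO kidneys of set 1 and triangles those of set 2, horizontal bars with whiskers give the group mean and SD, and the dashed line marks the median gene of the arrays at 7.05. HAVCR1 and LCN2 lie close to that line in all 4 controls and above 10 in all 12 kidneys after UUO, while CD44 and PROM1 stay near it throughout.

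HAVCR1 is a surface receptor for phosphatidylserine with which tubule cells take up dying neighbours. In the controls it read 7.24 and 7.22 (WT) or 7.07 and 7.37 (IL-33-deficient), close to the median gene. After UUO it lay between 10.42 and 13.95 (median 13.50) in WT kidneys and at 13.87, 13.84, 13.71, 13.61 and 13.67 in IL-33-deficient kidneys. Every UUO kidney was above every control, and 1 kidney, WT replicate 3820 at 10.42, lay far below the other 11, of which WT replicate 3818 was the lowest at 12.84. The log2 fold change was 5.78 (SE 0.62, limma adjusted p = 6.3e-05, higher in 7 of 7 kidneys) in WT. It was 6.52 (SE 0.64, adjusted p = 1.4e-05, 5 of 5) in IL-33-deficient kidneys. With background subtracted these became 7.05 and 7.85, so no exact fold can be given against controls this dim. Without replicates 3818 and 3820 the WT value was 6.33. The exact two-sided permutation p was 0.0278 for 7 against 2 kidneys and 0.0476 for 5 against 2, in both cases the smallest these numbers allow.

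LCN2, a secreted lipocalin that binds bacterial siderophores and so withholds iron, is made by injured tubule cells and stored by neutrophils. Controls read 7.64 and 7.44 (WT) or 7.61 and 7.54 (IL-33-deficient). After UUO the WT kidneys ran from 11.81 to 13.62 (median 13.40), and the IL-33-deficient kidneys gave 13.69, 13.70, 13.50, 13.60 and 12.97. Again no UUO kidney overlapped the controls, and WT replicates 3820 and 3818 were the lowest, at 11.81 and 12.79. The log2 fold change was 5.61 (SE 0.36, limma adjusted p = 6.7e-07) in WT and 5.91 (SE 0.37, adjusted p = 4.2e-07) in IL-33-deficient kidneys. Background subtraction made them 6.54 and 6.81, the LCN2 controls being dim as well. Without those 2 arrays the WT value was 5.94.

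SPP1 (osteopontin) is a secreted, integrin-binding glycoprotein that some tubule segments also make in health. It was bright already in the controls, at 12.45 and 12.07 (WT) or 12.54 and 12.30 (IL-33-deficient). The 7 WT kidneys after UUO lay within 13.52 to 13.79 (median 13.73), and the 5 IL-33-deficient kidneys at 13.73, 13.66, 13.82, 13.59 and 13.58. All 12 UUO kidneys exceeded all controls, and they did so evenly: WT replicate 3820, lowest for HAVCR1 and LCN2, had the second highest SPP1 of the 12 at 13.79. SPP1 rose by a log2 of 1.44 (SE 0.10, limma adjusted p = 8.2e-07, 2.71-fold) in WT and 1.25 (SE 0.10, adjusted p = 3.2e-06, 2.39-fold) in IL-33-deficient kidneys, and the WT value was 1.43 without 3818 and 3820. After UUO its values lay at or above percentile 99.67 of the genes on each array, and whether the range of the scanner narrowed their spread was not tested. HAVCR1 (up to percentile 99.87) and LCN2 (up to 99.76) reached the same range after UUO, and for them it was not tested either.

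ANXA2, a calcium-dependent protein that binds membranes and, with S100A10, assembles plasmin-forming complexes on the cell surface, read 11.28 and 10.90 (WT) or 11.08 and 10.94 (IL-33-deficient) in controls. After UUO it ran from 11.36 to 13.11 (median 12.72) in WT kidneys and was 13.25, 13.25, 12.99, 13.00 and 12.84 in IL-33-deficient kidneys. The groups did not overlap, but WT replicate 3820 at 11.36 exceeded the higher WT control by less than the 2 controls differed. The log2 fold change was 1.41 (SE 0.32, limma adjusted p = 0.0081) in WT and 2.05 (SE 0.34, adjusted p = 4.6e-04) in IL-33-deficient kidneys, with 7 of 7 and 5 of 5 kidneys higher. The WT call was lost without WT control 3812 (adjusted p = 0.134), with set 1 alone (0.264) and with only the 2 groups in the model (0.0522), within a range of 7.1e-07 to 0.264 over 19 alternatives. Without replicates 3818 and 3820 the WT value was 1.73 (adjusted p = 7.7e-07).

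VCAM1 is an adhesion molecule for leukocytes that carry the integrin of ITGA4 and ITGB1, known from endothelium and also from tubule cells that fail to recover. It read 8.46 and 8.28 in WT controls and 8.34 and 8.18 in IL-33-deficient controls. After UUO the WT kidneys lay between 8.26 and 9.60 (median 8.65), and the IL-33-deficient kidneys at 9.86 and 10.05 in set 1 and 9.10, 9.19 and 9.13 in set 2. All 5 IL-33-deficient kidneys were above all controls, whereas the WT kidneys overlapped the controls, with WT replicate 3893 at 8.26 below each WT control. The log2 fold change was 1.20 (SE 0.31, limma adjusted p = 0.011) in IL-33-deficient kidneys. In WT it was 0.42 (SE 0.30, adjusted p = 0.453, 95% interval from -0.22 to 1.05), and 0.41 without 3818 and 3820. The call in IL-33-deficient kidneys was lost without control 3813 (adjusted p = 0.0648) or control 3814 (0.0989), within a range of 1.4e-04 to 0.0989 over 17 alternatives.

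SOX9 is a transcription factor of the developing nephron that returns in tubule cells undergoing repair. Controls read 6.81 and 6.84 (WT) or 6.85 and 6.80 (IL-33-deficient), within the dimmest 21.4% of the genes on each array. After UUO the WT kidneys ran from 7.20 to 8.17 (median 7.76), and the IL-33-deficient kidneys gave 7.69, 7.75, 7.84, 7.69 and 7.49. All UUO kidneys lay above all controls, WT replicates 3818 and 3820 being the lowest at 7.20 and 7.33. The log2 fold change was 0.88 (SE 0.19, limma adjusted p = 0.0053) in WT and 0.87 (SE 0.19, adjusted p = 0.0043) in IL-33-deficient kidneys. It became 2.24 and 2.28 once background had been subtracted, so its size rests on how background light is treated. In WT the call was lost without control 3811 (adjusted p = 0.0663), without control 3812 (0.0672) and with set 1 alone (0.151), within a range of 8.3e-06 to 0.151 over 19 alternatives. Without replicates 3818 and 3820 the WT value was 1.05.

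CD44, a receptor for hyaluronan and SPP1, and PROM1, a cholesterol-binding protein of membrane protrusions found on tubular progenitor-like cells, gave intensities no higher than the median gene or barely above it. CD44 ranged from 6.90 to 7.06 over the 16 kidneys, at percentiles 32.4 to 50.4 of the genes on an array, and PROM1 from 6.86 to 7.10, at percentiles 22.9 to 52.7. The log2 fold change of CD44 was 0.10 (limma adjusted p = 0.080, 95% interval from 0.02 to 0.18) in WT and 0.08 (adjusted p = 0.181) in IL-33-deficient kidneys. Its 7 WT kidneys after UUO, at 6.93 to 7.06, did lie above both WT controls at 6.91 and 6.90 (exact permutation p = 0.0278), and its 5 IL-33-deficient kidneys after UUO, at 6.96 to 7.05, above both controls at 6.94 and 6.92 (exact permutation p = 0.0476), in both cases the smallest p possible. CD44 passed an adjusted p of 0.05 in WT without replicates 3818 and 3820 (log2 fold change 0.13, adjusted p = 0.0168), without 3818 alone (0.0360), with set 2 alone (0.0368) and with array weights (0.0215), within a range of 0.0168 to 0.565 over 18 alternatives. PROM1 differed by 0.02 (adjusted p = 0.896, and -0.0033 without 3818 and 3820) in WT and 0.03 (adjusted p = 0.826) in IL-33-deficient kidneys, with UUO and control kidneys overlapping. How much of such dim intensities is background was not measured, so the shift of CD44 is given as intensity only.

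**Figure D2:**
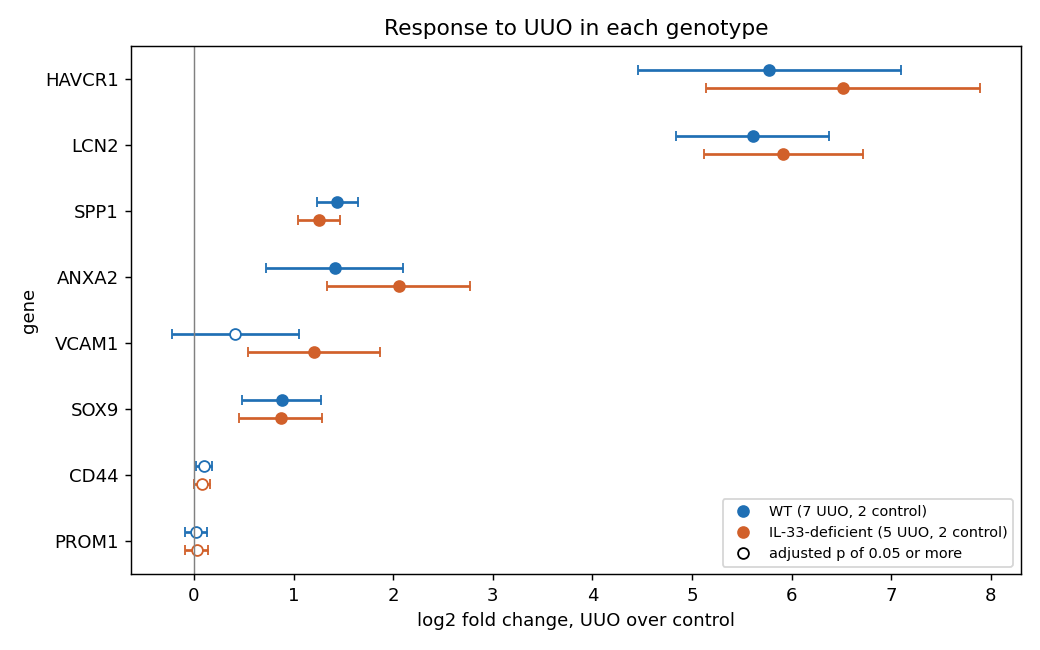
Log2 fold change of UUO over control (horizontal axis) for each member (vertical axis), in WT and in IL-33-deficient kidneys. Points are limma estimates, bars their 95% intervals, and open points had an adjusted p of 0.05 or more. HAVCR1 and LCN2 exceed 5 in both genotypes, SPP1, ANXA2 and SOX9 lie between 0.87 and 2.05, and VCAM1 is called in IL-33-deficient kidneys at 1.20 but not in WT at 0.42, a difference between genotypes that was itself not called.

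The difference between the genotypes in the response to UUO was tested directly in the model of all 4 groups. For VCAM1 it was 0.79 (95% interval from -0.14 to 1.71, limma adjusted p = 0.973), for HAVCR1 0.74 (from -1.16 to 2.64, adjusted p = 0.978), for ANXA2 0.64 (from -0.35 to 1.63, adjusted p = 0.973) and for SPP1 -0.19 (from -0.48 to 0.11, adjusted p = 0.973). None of the 8 members was called, and neither was any other gene (0%), with 860 genes at an unadjusted p under 0.05 in limma. Without replicates 3818 and 3820 these differences were 0.80 for VCAM1, 0.19 for HAVCR1, 0.33 for ANXA2 and -0.18 for SPP1, and leaving out 3820 alone gave 0.31 for HAVCR1. That of SPP1 turned on the controls, at -0.37 without WT control 3811 and near 0 (2.2e-04) without WT control 3812. The intervals are wide, and that of HAVCR1 spans weaker as well as far stronger responses without IL-33. Before UUO the members lay close together in both genotypes. In controls none of the 8 members and no gene of the array (0%) was called, with 664 genes at an unadjusted p under 0.05 in limma, and 2 against 2 arrays cannot give an exact p below 0.333.

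Among the 12 kidneys after UUO, IL-33-deficient kidneys were compared with WT at the study's threshold, which asks for unadjusted p below 0.05, adjusted p below 0.25 and more than 1.3-fold change. None of the 8 members passed, and 0.011% of all genes did. VCAM1 came closest, at a log2 of 0.68 higher without IL-33 (SE 0.23, limma adjusted p = 0.356, exact permutation p = 0.0341), with WT replicates 3819 at 9.60 and 3820 at 9.12 lying among the IL-33-deficient values. ANXA2 was 0.56 higher (SE 0.25, limma adjusted p = 0.467, exact permutation p = 0.0556), HAVCR1 0.73 higher (SE 0.49, adjusted p = 0.655) and LCN2 0.35 higher (SE 0.28, adjusted p = 0.733), while SPP1 differed by -0.02 (SE 0.05, adjusted p = 0.925). Without replicates 3818 and 3820 the HAVCR1 difference was 0.18, that of ANXA2 0.25 and that of LCN2 0.01, while VCAM1 stood at 0.69 and SPP1 at -0.02. Leaving out 3820 alone gave 0.30 for HAVCR1, 0.37 for ANXA2 and 0.12 for LCN2.

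VCAM1 overlapped between the genotypes over all 12 kidneys and between the sets in WT, so it was also read within each set. In set 1 the IL-33-deficient kidneys read 9.86 and 10.05 and the WT kidneys 8.51, 9.60 and 9.12. In set 2 the IL-33-deficient kidneys read 9.10, 9.19 and 9.13 and the WT kidneys 8.63, 8.26, 8.65 and 8.73. Within each set every IL-33-deficient kidney was above every WT kidney, and within each genotype set 1 was the higher on average. The genotype difference was 0.88 in set 1, where the exact p of 0.200 could not have been below 0.100, and 0.57 in set 2 (exact permutation p = 0.0286, the smallest for 3 against 4). An exact permutation of genotypes within the sets, chosen after the values were seen, gave p = 0.0114 over 350 arrangements, not adjusted for the 8 members. In the model of genotype by set, limma gave VCAM1 an adjusted p of 0.217 in set 1, which meets the study's threshold, and of 0.951 in set 2. ANXA2 met it in set 1 too, at 1.06 (adjusted p = 0.247), with 0.20 (0.981) in set 2. In set 1 13.9% of all genes had an unadjusted p under 0.05 in limma, and how many met the study's threshold was not counted. In set 1 ANXA2 and LCN2 likewise did not overlap between the genotypes, each at an exact permutation p of 0.200. For LCN2 the gap was narrow, from 13.62 in WT replicate 3819 to 13.69. The share of all genes without overlap was not counted in either set. The ANXA2 value of set 1 turned on WT replicates 3818 and 3820, which read 12.09 and 11.36. WT replicate 3819 read 13.11, close to the 13.25 of both IL-33-deficient kidneys. With set 1 fitted alone neither VCAM1 nor ANXA2 passed (adjusted p = 0.736 for both). Over all 12 kidneys or in other choices of arrays, VCAM1 passed with the arrays of set 2 fitted alone (adjusted p = 0.145), without WT replicate 3819 (0.131) and with the brighter genes alone (0.237), within a range of 0.131 to 0.736 over 24 alternatives.

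Set 2 lay below set 1 for VCAM1 by a log2 of 0.51 in WT (8.57 against 9.07 on average, limma adjusted p = 0.359) and by 0.82 in IL-33-deficient kidneys (9.14 against 9.95, adjusted p = 0.688, a contrast added after the data were seen). The WT value was -0.79 without 3818 and -0.25 without 3819. In WT, HAVCR1 was 1.06 higher in set 2, LCN2 0.71, ANXA2 0.56 and SOX9 0.36. No member was called between the WT sets, where 0.0165% of all genes were. In IL-33-deficient kidneys set 2 differed from set 1 the other way. The values were -0.19 for HAVCR1, -0.34 for LCN2, -0.31 for ANXA2 and -0.05 for SOX9, none of them called. The WT differences turned on single kidneys. Without WT replicate 3820 they were 0.07 for HAVCR1, 0.25 for LCN2, 0.15 for ANXA2 and 0.28 for SOX9, and SOX9 was at 0.21 without 3818. Without WT replicate 3819, which leaves only 3818 and 3820 in set 1, set 2 was higher by 1.83 for HAVCR1 (adjusted p = 0.0378), 1.15 for LCN2 (0.0133), 1.02 for ANXA2 (0.0043) and 0.59 for SOX9 (0.0194), all called, within ranges that reach 0.970 over 15 alternatives. Without 3818 and 3820, set 1 is the single WT kidney 3819, with the spread taken from the other groups, so the values of HAVCR1 (-0.49), LCN2 (-0.17), ANXA2 (-0.36), SOX9 (-0.10) and VCAM1 (-1.03) describe that kidney against set 2 and are no test of the sets. Since no set is given for the controls, the set cannot be told apart from treatment in any VCAM1 comparison with controls.

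**Figure D3:**
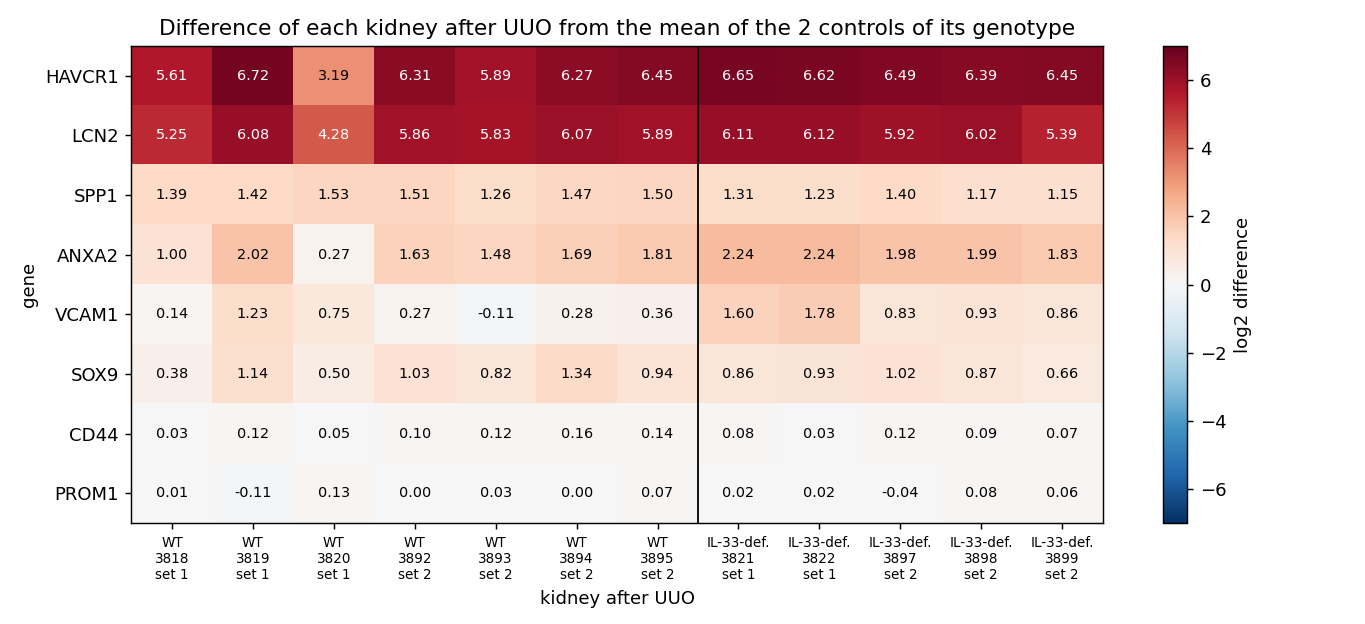
Log2 difference between each of the 12 UUO kidneys (columns, with genotype, replicate and set) and the average control of the same genotype, for the 8 members (rows). Colour and printed value give the difference. WT replicate 3820 shows the smallest difference for HAVCR1 (3.19), LCN2 (4.28) and ANXA2 (0.27) but the largest for SPP1 (1.53).

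Set against the mean of its own controls, a single kidney could respond strongly in some members and weakly in others. WT replicate 3820 differed by 3.19 for HAVCR1, 4.28 for LCN2, 0.27 for ANXA2 and 0.50 for SOX9, yet by 1.53 for SPP1 and 0.75 for VCAM1. WT replicate 3818 differed by 5.61 for HAVCR1, 1.00 for ANXA2, 0.38 for SOX9 and 0.14 for VCAM1. WT replicate 3819 stood at the other end, with the largest HAVCR1 difference of all 12 kidneys (6.72) and the largest ANXA2 (2.02) and VCAM1 (1.23) differences among the WT kidneys. SOX9 followed yet another order, with its largest difference (1.34) in WT replicate 3894.

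How the members moved together from kidney to kidney was measured against HAVCR1 over the 12 UUO kidneys, in 7 relations with p-values adjusted over those 7. ANXA2 followed HAVCR1 most closely, with Pearson's r of 0.946 (permutation p = 1e-05, the smallest that 100000 resamples can give, adjusted p = 7e-05) and Spearman's rho of 0.928 (permutation p = 5e-05). Without the 2 kidneys farthest from the median of HAVCR1, which are WT replicates 3818 and 3820, r was 0.886, and within the 7 kidneys of set 2 it was 0.854 (exact permutation p = 0.0115). For the 5 UUO kidneys of set 1 no separate value was calculated. LCN2 gave r of 0.926 (permutation p = 0.002, adjusted p = 0.00718) and rho of 0.783 (permutation p = 0.0039), but r fell to 0.350 without those 2 kidneys and to -0.07 in set 2 (exact permutation p = 0.850), so its relation with HAVCR1 rests on 3818 and 3820.

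For VCAM1 the 2 measures differed over the 12 kidneys: its ranks followed those of HAVCR1 (rho = 0.720, permutation p = 0.011), while r was 0.229 (permutation p = 0.50, adjusted p = 0.579), with replicate 3820 low in HAVCR1 and not in VCAM1. Without replicates 3818 and 3820, r was 0.859, and in set 2 it was 0.824 (exact permutation p = 0.0131), but over the 12 kidneys centred on the mean of each genotype it was -0.03. SOX9 (r = 0.582, permutation p = 0.060, rho = 0.462, permutation p = 0.13), CD44 (r = 0.490, permutation p = 0.11, rho = 0.329, permutation p = 0.30), SPP1 (r = -0.192, permutation p = 0.61, rho = 0.08, permutation p = 0.81) and PROM1 (r = -0.622, permutation p = 0.058, rho = -0.375, permutation p = 0.23) did not pass, with adjusted p of 0.105, 0.149, 0.613 and 0.105. Leaving out 3818 and 3820 gave r of 0.08, -0.252, 0.412 and -0.399 for these 4 genes.

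**Figure D4:**
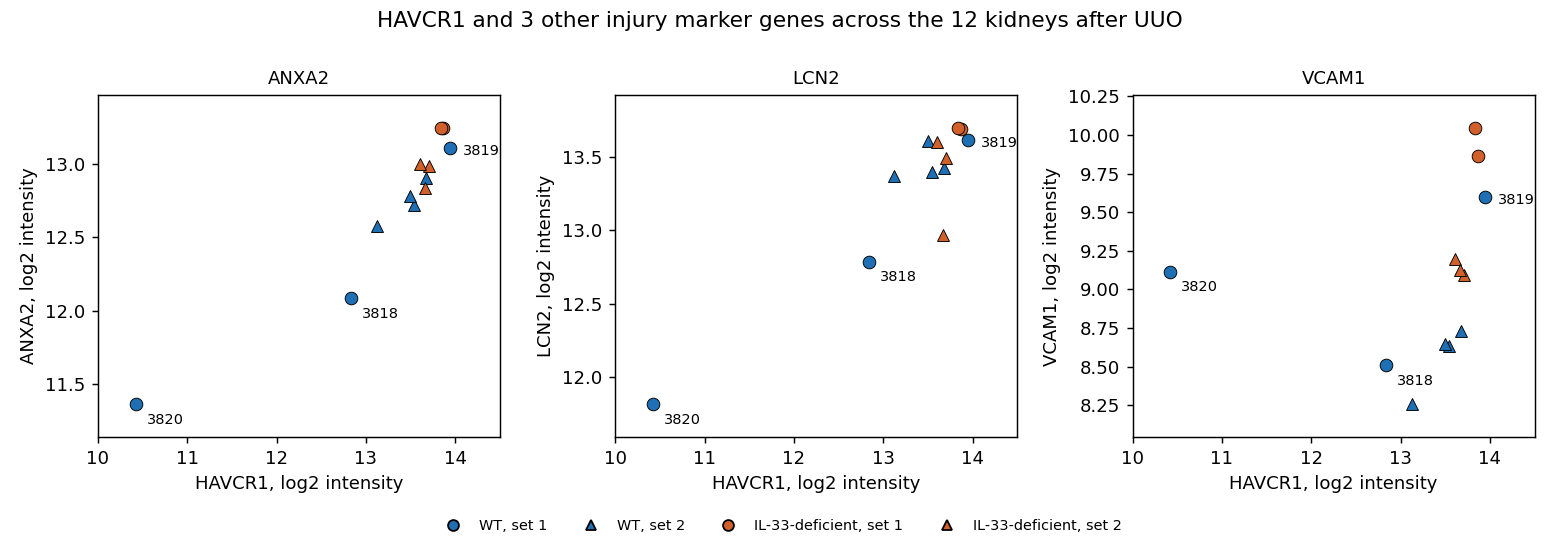
Log2 intensity of ANXA2, LCN2 and VCAM1 (vertical axes) against that of HAVCR1 (horizontal axes) in the 12 kidneys after UUO, with colour for genotype and shape for set. ANXA2 climbs with HAVCR1 along the whole range (r = 0.946), the LCN2 relation hangs on WT replicates 3818 and 3820, and VCAM1 of replicate 3820, at 9.12, lies off the course of the other kidneys.

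The promoters of HAVCR1 and ANXA2, which moved together, are shown next, beside those of LCN2, whose relation with HAVCR1 rested on 3818 and 3820, and of PROM1, which lay near the median gene. RefSeq (GRCm38.p6) starts were found for 6 of the 9 members: 3 for HAVCR1, 2 each for SPP1 and PROM1, and 1 each for LCN2, ANXA2 and CD44. The promoter windows available here did not include SOX9, VCAM1 and CLU. The stretches printed are the 250 bases before the start, 5' to 3' on the strand of the gene, with letters that match a searched motif in capitals. They come from chr11:46739973-46740222 (plus strand, the most upstream of its starts), chr2:32387740-32387989 (minus strand), chr9:69453433-69453682 (plus strand) and chr5:44101737-44101986 (minus strand).
HAVCR1: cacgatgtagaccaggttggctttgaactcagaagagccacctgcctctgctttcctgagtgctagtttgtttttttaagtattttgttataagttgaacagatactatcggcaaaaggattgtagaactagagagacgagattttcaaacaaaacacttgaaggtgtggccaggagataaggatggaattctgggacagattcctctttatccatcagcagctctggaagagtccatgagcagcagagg
LCN2: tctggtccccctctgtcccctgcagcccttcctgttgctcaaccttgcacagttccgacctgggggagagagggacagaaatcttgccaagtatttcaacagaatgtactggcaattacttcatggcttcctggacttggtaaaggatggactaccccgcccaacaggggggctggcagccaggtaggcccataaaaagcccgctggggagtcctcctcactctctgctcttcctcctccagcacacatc
ANXA2: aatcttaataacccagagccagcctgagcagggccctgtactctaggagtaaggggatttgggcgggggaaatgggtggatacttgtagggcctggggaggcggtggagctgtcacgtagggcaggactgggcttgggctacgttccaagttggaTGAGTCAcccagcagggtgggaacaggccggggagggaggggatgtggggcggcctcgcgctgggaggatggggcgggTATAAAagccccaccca
PROM1: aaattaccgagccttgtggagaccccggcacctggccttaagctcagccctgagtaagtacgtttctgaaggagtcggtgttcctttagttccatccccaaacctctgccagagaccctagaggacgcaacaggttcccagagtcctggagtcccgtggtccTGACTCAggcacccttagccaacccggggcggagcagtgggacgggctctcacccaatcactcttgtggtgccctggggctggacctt

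Windows of 300 bases, from 250 before to 50 after each start, were searched on both strands for TGANTCA, the core of AP-1 sites, GGNNTTNCC for NF-kappaB, TTCNNNGAA for STAT factors, ACAATGG for SOX factors and TATAAA for the TATA box. Of all 32851 such windows in the table, 7.81%, 16%, 8.30%, 3.66% and 13.6% held them. ANXA2 carried TGAGTCA from 95 bases before its start, and TATAAA besides. PROM1 carried TGACTCA from 88 bases before the start printed and TGAATCA in its other window. HAVCR1 held a match to TGANTCA in the window of its most downstream start alone, behind that start, and LCN2 held none of the 5 motifs. CD44 had 1 match to GGNNTTNCC, and 1 of the 2 SPP1 windows had TATAAA. The stretches printed for ANXA2 and HAVCR1 held no motif of this list in common, though TGANTCA matched ANXA2 and another window of HAVCR1. Whether such matches bear on how the 2 genes moved was not tested. A match is a run of letters and no measured binding.

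Genes whose course over the 12 UUO kidneys was most like that of a member were looked up among those brighter than the median gene, as a description with no test. For HAVCR1 these were CD151 (r = 0.982), EIF6 (0.977) and S100A11 (0.974), and for ANXA2 they were TMEM184B (0.995), LGALS3 (0.988) and CHRNB1 (0.983). LCN2 was most like TUBB5 (0.955), MYO9B (0.955) and EIF3G (0.952). Without 3818 and 3820, r was 0.786, 0.577 and 0.704 for the HAVCR1 neighbours, 0.668, 0.738 and 0.694 for those of LCN2, and 0.97, 0.917 and 0.935 for those of ANXA2. SOX9 ran closest to KCTD20 (0.940), 1300014I06RIK (0.936) and CDKN1A (0.931), the last a cell cycle inhibitor. VCAM1 ran closest to CASP1 (0.890), 2700007P21RIK (0.886) and MYD88 (0.867), of which CASP1 and MYD88 belong to innate immune signalling. SPP1, with its narrow spread, was most like ZFP288 (0.837), D630048P19RIK (0.837) and E430028B21RIK (0.813). The nearest genes of CD44 were PWP2 (0.925), OLFR802 (0.917) and JTV1 (0.889) and those of PROM1 included COX7B (0.870) and NAMPT (0.857), but both members lay near the median gene there.

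Receptors, ligands and relatives of the members formed a list of 34 genes, of which 32 were measured. In WT 7 were higher after UUO and 2 lower, and in IL-33-deficient kidneys 8 were higher and 2 lower, with a median log2 fold change of 0.06 and 0.03 beside 0.00 over all genes. Beside this list and those below, 6.97% of all genes were called higher and 8.22% lower in WT. In IL-33-deficient kidneys these shares were 10.6% and 11.2%. The lists overlap: ANXA1, ANXA3 and ANXA5 are counted again among the other injury genes, LRP2 among proximal tubule markers and LTF among neutrophil markers. The WT counts of partners were 7 and 3 without 3818 and 3820 and ran from 0 to 8 higher and 0 to 3 lower over 18 alternatives, none being called with set 1 alone. In IL-33-deficient kidneys 0 were lower without control 3813 or control 3814. S100A10, the partner of ANXA2, rose by 1.53 (SE 0.32, limma adjusted p = 0.0052) in WT and 1.94 in IL-33-deficient kidneys. Of its relatives, ANXA3 rose by 1.70 and 2.45, ANXA5 by 0.90 and 1.27 and ANXA6 by 0.66 and 0.89, whereas ANXA4 rose in IL-33-deficient kidneys alone (0.49, against 0.08 in WT with adjusted p = 0.618, the ANXA4 difference of 0.41 between the genotypes not being called) and ANXA1 and ANXA7 were not called. The integrin chain ITGAV, which pairs into receptors for SPP1, rose by 1.00 and 1.26, and ITGB1 by 0.40 and 0.37, the ITGB1 call being lost in 3 of 19 alternatives in WT (adjusted p up to 0.163) and 2 of 17 in IL-33-deficient kidneys (up to 0.154). In WT the calls of S100A10, ANXA3 and ANXA6 were lost in 2 of 19 alternatives each and those of ITGAV, ANXA5 and TIMD2 in 1 of 19. ITGA4, the chain that binds VCAM1, was at or below the median gene in all 16 kidneys. TIMD2, a relative of HAVCR1, rose by 1.496 and 1.70, from 10.47 to 11.96 in WT, and HAVCR2 and TIMD4 were not called. PROM2, the relative of PROM1, fell by 0.34 in WT and by 0.29 in IL-33-deficient kidneys, with its call lost in 2 of 19 and 3 of 17 alternatives.

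Other partners lay at the edge of the test or did not pass it. SLC22A17, a receptor for LCN2, differed by -0.21 in WT (adjusted p = 0.0497) and by -0.16 in IL-33-deficient kidneys, where it was not called (SLC22A17 difference between genotypes 0.05, not called), and its WT call was lost in 11 of 19 alternatives, with adjusted p from 0.0051 to 0.422. VLDLR, of the family of lipoprotein receptors, differed by -0.27 in IL-33-deficient kidneys (adjusted p = 0.0442) and by -0.14 in WT, where it was not called (VLDLR difference between genotypes -0.13, not called), and that call was lost in 8 of 17 alternatives, with adjusted p from 0.0195 to 0.299. The remaining partners, LRP2, LTF, LRP8, ITGB3, ITGB5, ITGA9, ITGB7, HAS1, HAS2, HMMR, SRGN, PLAT, PLG, SOX8, SOX5 and SOX6, were called in neither genotype.

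Other genes known to rise in injured tubules, a list chosen with earlier results of these data known, gave a picture near that of the members. Of 43 measured, 27 were higher and 1 lower in each genotype, with a median log2 fold change of 1.08 in WT and 1.21 in IL-33-deficient kidneys. With the UUO arrays of set 1 alone 5 were higher in WT, there were 20 without control 3811 and 18 without control 3812, and without replicates 3818 and 3820 there were 32. The largest were the fibrinogen chains FGG (5.03 in WT, 5.44 in IL-33-deficient kidneys) and FGA (4.02 and 4.22), the protease inhibitor TIMP1 (4.05 and 4.76), the neutrophil attractant CXCL1 (3.57 and 3.65) and complement C3 (3.32 and 4.01, its WT call lost in 1 of 19 alternatives). AKAP12 (1.34), CCL2 (0.51) and CDH6 (0.23) were called in IL-33-deficient kidneys and not in WT (1.27, 0.27 and 0.01), with uncalled differences between the genotypes of 0.07 for AKAP12, 0.24 for CCL2 and 0.22 for CDH6. As many were called in WT and not without IL-33, KRT19 (0.33, against 0.23), ATF3 (1.06, against 0.82) and HBEGF (1.15, against 0.67), with uncalled differences of -0.09 for KRT19, -0.24 for ATF3 and -0.47 for HBEGF. Calls of AKAP12, CCL2 and CDH6 were lost in 4 of 17, 1 of 17 and 3 of 16 alternatives.

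Among 20 factors of the developing nephron, the company of SOX9, 1 was higher and 1 lower in WT, and 4 were higher and 1 lower in IL-33-deficient kidneys, with medians of -0.02 and -0.01. These counts lie near the shares of all genes called, 15.2% and 21.8%. In WT 2 were higher and 1 lower without 3818 and 3820, and 0 were called with set 1 alone or without control 3812. In IL-33-deficient kidneys 0 were higher without control 3813, 1 without control 3814 and 2 with set 1 alone. PAX8 rose by 0.45 and 0.61 and LHX1 fell by 0.69 and by 0.94, while NOTCH1 (0.36), FOXC1 (0.33) and CD24A (0.26) were called in IL-33-deficient kidneys only, with uncalled differences between the genotypes of 0.21 for NOTCH1, 0.39 for FOXC1 and 0.10 for CD24A. These calls were unsteady, lost in 8 of 19 alternatives for PAX8 and 2 of 19 for LHX1 in WT and, without IL-33, in 6 of 17 for NOTCH1, 7 of 17 for FOXC1 and 5 of 16 for CD24A.

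Markers of mature tubule were counted in the same kidneys. Of 27 proximal tubule markers, 9 were lower and 1 (DAB2, named after its value was seen) higher in WT, while without IL-33 there were 20 lower and 1 higher, with medians of -0.65 and -0.996. None of the 27 was called for the difference in response between the genotypes, and none passed the study's threshold between the genotypes after UUO. The WT count of lower markers was 16 with 3818 and 3820 left out, but 5 without control 3811, 2 without control 3812 and 2 with set 1 alone. Among those that fell were MIOX (-2.05 and -3.13), ANPEP (-1.10 and -1.93) and CYP4B1 (-1.01 and -1.59), their WT calls being lost in 1, 2 and 2 of 19 alternatives, while KAP, on average the brightest of the list, was not called. Of 12 markers of thick limb and distal tubule, 9 and 7 were lower and 0 higher, led by EGF (-4.15 and -4.86), SLC12A1 (-3.12 and -3.13) and PVALB (-3.07 and -3.19), with WT calls lost in 1, 2 and 0 of 19 alternatives. In WT 10 were lower without 3818 and 3820, 6 without control 3811, 7 without control 3812 and 2 with set 1 alone. UMOD was the brightest of these and CALB1 stayed at or below the median gene. Of 13 collecting duct markers 6 were lower in each genotype and 0 higher, among them SLC4A1 (-2.17 and -2.57, the WT call lost in 1 of 19 alternatives), and in WT 9 were lower without 3818 and 3820, 1 without control 3811, 3 without control 3812 and 0 with set 1 alone. Without IL-33 it was 3 without control 3813, 5 without control 3814 and 3 with set 1 alone. In bulk tissue, fewer cells of a type and less RNA per cell cannot be told apart.

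Several members are also made by cells other than tubule cells, so the markers of those cells are given beside them, and their part in the members' values was not tested. LCN2 is stored by neutrophils. Of 13 neutrophil markers 3 were higher in WT and 4 in IL-33-deficient kidneys and 0 lower, and 6 of them (LTF, CAMP, MPO, CSF3R, IL8RB and MMP8) stayed at or below the median gene in all kidneys. Their summed intensity was 1981, 1836, 1785 and 1578 in the controls, ran from 1934 to 3562 (median 3252) in WT after UUO and was 3150, 2969, 4135, 3912 and 2588 in IL-33-deficient kidneys, with S100A8 the brightest. The WT count of higher neutrophil markers was 4 without 3818 and 3820, but 0 without control 3811, without control 3812 or with set 1 alone, and the IL-33-deficient count was 4 without control 3813, 2 without control 3814 and 1 with set 1 alone.

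SPP1 and CD44 are also products of macrophages. Of 14 macrophage markers 3 were higher and 1 lower in WT, and 7 higher and 1 lower in IL-33-deficient kidneys. No macrophage marker was called for the difference in response between the genotypes. In WT 3 were higher without 3818 and 3820, 1 without control 3811, 1 without control 3812 and 0 with set 1 alone. Their sum was 3076, 3080, 2908 and 2822 in controls, ran from 3564 to 6888 (median 5083) in WT after UUO and was 7486, 6660, 5854, 5990 and 4829 in IL-33-deficient kidneys. CD14 was the brightest and rose by 2.63 and 2.89 (the WT call lost in 1 of 19 alternatives), CSF1R fell by 0.41 and by 0.36, and ITGAM, CD163 and MSR1 stayed at or below the median gene. Of 11 T and B cell markers 0 were called in either genotype, with or without 3818 and 3820, and their sum stayed between 1349 and 1497 in all 16 kidneys, with LCK the brightest and CD8A, CD4 and TRAT1 at or below the median gene.

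VCAM1 is known from endothelium and from fibroblasts and pericytes. Of 12 endothelial markers 4 were lower and 0 higher in each genotype, and their sum was 6411 and 6341 (IL-33-deficient, set 1), 5746, 5661 and 5460 (IL-33-deficient, set 2) and 5608 to 6177 (median 5675) in WT after UUO, against 6700, 6729, 6908 and 6085 in controls. In WT 6 were lower without 3818 and 3820, 2 without control 3811, 1 without control 3812 and 0 with set 1 alone, and in IL-33-deficient kidneys 1 without control 3813, 2 without control 3814 and 1 with set 1 alone. EMCN was the brightest endothelial marker, and ERG stayed at or below the median gene. Of 11 fibroblast and pericyte markers 5 were higher in WT and 6 in IL-33-deficient kidneys and 0 lower. The WT count was 5 without 3818 and 3820, but 1 without control 3811 or control 3812 and 0 with set 1 alone. Their sum was 6067, 6923, 6333, 6033 and 5908 in IL-33-deficient kidneys after UUO and 3735 to 5603 (median 4469) in WT, against 3682, 4112, 3721 and 3837 in controls, so it was higher in every IL-33-deficient kidney than in every WT kidney. This separation needed ACTA2. Summed without it, IL-33-deficient replicates 3898 (3679) and 3899 (3394) lay below WT replicate 3819 (3750). ACTA2, the brightest fibroblast and pericyte marker, was the only gene of the lists described here to pass the study's threshold between the genotypes after UUO. It no longer passed when any of 3821, 3822, 3892, 3893, 3894, 3895, 3897 or 3898 was left out, with the set as a block or with set 1 alone. GLI1 stayed at or below the median gene. Podocyte markers (0 higher and 2 lower of 5 in each genotype, in WT also without 3818 and 3820 but 1 lower without control 3812 or with set 1 alone, PODXL the brightest) summed to 2211 to 2966 over the 16 kidneys. Urothelial markers (1 higher and 0 lower of 8 in WT, with or without 3818 and 3820 but 0 higher without control 3811 or control 3812, 1 higher and 5 lower in IL-33-deficient kidneys, PSCA the brightest) summed to 985 to 1649. The 5 lower urothelial markers were 2 without control 3813, 1 without control 3814 and 0 with set 1 alone, and the 1 higher was lost with either of these controls left out. No urothelial marker was called for the difference in response between the genotypes.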

How the data were processed

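Biotin-labelled RNA of 16 mouse kidneys had been hybridized to Illumina MouseRef-8 BeadChips. The authors deposited linear intensities, 1 per gene, for 18132 genes, with array medians of 132 to 133 and a lowest intensity of 95.5. The submitters' notes name BeadStudio 2. How background was corrected, how arrays were scaled (normalization) and by what rule several probes were joined into 1 gene was not given in the sources used here, and there were no detection p-values to filter on. No 2 arrays were copies: at most 19 genes had the same intensity in any pair.

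After quantile normalization and log2, groups were compared in R 4.3.3 by the moderated t-test of limma 3.58.1. The Benjamini-Hochberg method adjusted p-values across the whole array. Responses, their difference between genotypes and controls came from 1 model of the 4 groups, the genotypes after UUO from the 12 UUO arrays, and sets from a model of genotype by set on those arrays. Permutations, correlations, motif searches and plots used Python 3.11.15 with numpy 2.4.6, scipy 1.17.1, pandas 2.3.3 and matplotlib 3.10.9. Permutation tests were two-sided.

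The members and lists were chosen with earlier results of these data known. Genes were named by rule: all members and partners, from the other lists examples among the 5 with the largest change called in WT and the 3 called in IL-33-deficient kidneys only, and up to 3 genes most alike to each member. DAB2, KRT19, ATF3 and HBEGF were named outside that rule, after their values were seen. So were genes given as the brightest of a list or as staying at or below the median gene. The fits were tested on simulated data. Alternatives were other normalizations, background subtraction, a trended variance, array weights, brighter genes only, single sets, the set as a block, other choices of arrays and leaving out each array.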

Additional observations from a re-analysis of the deposited data

Results flagged for a closer look

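In the 27 groups of kidneys searched (the 8 members and IL33 in 3 groups each), 5 values lay far from the rest of their group, where chance gives about 1 in 20. HAVCR1 of WT replicate 3820 was 10.42 after UUO, with the nearest of the other 6 WT kidneys at 12.84. LCN2 of IL-33-deficient replicate 3899 was 12.97, with the nearest of the other 4 at 13.50. SPP1 of WT replicate 3893 was 13.52 within set 2, against 13.73 for the nearest of the other 3, a gap that is small on the scale of the response. IL33 was 8.39 in WT replicate 3818, against 9.10 for the nearest WT kidney after UUO, and 9.33 in WT replicate 3893, against 9.44 for the nearest of set 2. The 9 genes and the groups overlap in kidneys, so these searches are not independent.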

How the results depend on the processing

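Each group of controls held 2 arrays, so the responses rest on few untreated kidneys. The controls carry no set, so set and treatment are mixed in every comparison with them. Intensities contain background light, which compresses the change of dim genes. Bulk tissue does not separate cell types, and the labels do not tell how many mice gave the arrays.

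Counted over members and alternatives, most results stayed as they were, called or uncalled. For all 8 members there were 138 unchanged, 6 weaker, 4 stronger and 2 of opposite sign in the WT response. The IL-33-deficient response gave 131, 2 weaker and 1 of opposite sign. Other comparisons were tallied for some members only. Between genotypes after UUO (HAVCR1, LCN2, SPP1, VCAM1 and ANXA2) there were 115, 3 stronger and 2 of opposite sign. The difference of responses (HAVCR1, SPP1, VCAM1 and ANXA2) gave 99 and 1 of opposite sign. Between WT sets (HAVCR1, LCN2, SOX9, VCAM1 and ANXA2) there were 66, 5 stronger and 4 of opposite sign. Most members in these partial tallies were uncalled to begin with. Counted in the same way over named genes of the lists and alternatives, the WT call was kept 822 times and lost 128 times, and the IL-33-deficient call was kept 1070 times and lost 84 times.

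Counts of genes moved more. For the WT response (2754) there were 188 with set 1, 4241 with set 2, 1778 with only the 2 groups in the model, and 809 to 3578 when 1 array was left out (1051 without control 3811, 809 without control 3812). For the IL-33-deficient response (3955) there were 2258 with set 1 and 2276 to 3798 with 1 array left out (2276 without control 3813, 2575 without control 3814). Between the genotypes after UUO, 2 genes passed, against 4 with background subtracted, 80 with array weights, 168 with brighter genes alone, 43 without 3818 and 3820, 1 with the set as block, 0 with set 1 alone (1081 at an unadjusted p under 0.05 in limma), 81 with set 2 alone, 127 in the model of 4 groups and 1 at an adjusted p under 0.05. Leaving out 1 array gave 1 to 309, with 309 without 3819, 94 without 3899, 31 without 3820 and 6 without 3818.

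For the difference of responses (0 genes, 860 unadjusted in limma) there was 1 without 3818 and 3820, 2 with set 2, and 0 to 1 with 1 array left out (1 without 3818). In controls there was 1 without 3818 and 3820. Between WT sets (3) there were 0 with background subtracted (2032 at an unadjusted p under 0.05 in limma), 1 with a trended variance, 338 with array weights, 24 without 3818 and 3820 (set 1 then being 3819 alone), 1 with the 7 WT arrays alone, and 0 to 1555 with 1 array left out (1555 without 3819).

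Among the members tallied for each comparison, signs turned for PROM1 in WT (-0.0033 without 3818 and 3820, -0.0015 to 0.0388 with 1 array left out) and in IL-33-deficient kidneys (-0.0240 to 0.0769), and for SPP1 between genotypes (-0.0616 to 4.9e-05) and in the difference of responses (-0.37 to 2.2e-04). Outside the tally, the genotype difference turned for SOX9 (-0.012 over both sets, 0.222 in set 1), CD44 (0.0015 and -0.0106 in set 2) and PROM1 (5.6e-04 and -0.0023 in set 1). LCN2 turned between genotypes with set 2 alone (-0.0947). Without 3818 and 3820, which leaves 3819 as the only WT kidney of set 1, the set difference turned for HAVCR1 (-0.49), LCN2 (-0.17), SOX9 (-0.10) and ANXA2 (-0.36).

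The correlations with HAVCR1 changed for LCN2 (0.350 without 3818 and 3820, -0.0736 in set 2), SPP1 (0.412 and 0.561), VCAM1 (0.859 and 0.824, and -0.0271 centred on genotype), SOX9 (0.642 centred), CD44 (-0.252 without 3818 and 3820) and PROM1 (0.0027 in set 2, -0.677 centred).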
